A study of Homo sapiens with 6 samples.

Results

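The genes described here are 9 regulators and markers of trophoblast and amnion: the transcription factors GATA2, GATA3, TFAP2A, TFAP2C, HAND1, TBX3, KLF5 and EPAS1, and the iron exporter SLC40A1. They were taken by gene symbol from a table of normalised expression values for 17929 genes in 6 RNA sequencing libraries. All 9 were found, and all 9 passed the filter on low values that left 17768 genes for testing. The libraries came from HES2 and H9, established lines of human embryonic stem cells kept on irradiated mouse embryonic fibroblasts with bFGF. The study asked what DDX18, a DEAD-box RNA helicase, does for the identity of these cells. The cells were infected with virus carrying a short hairpin RNA and collected on day 4. The groups were shDDX18#3 and shDDX18#1, 2 hairpins that target DDX18, and shLuc, the control hairpin, each with 1 library from HES2 and 1 from H9. Feeders, medium and viral infection were shared by all groups. Each library is a different pairing of line and hairpin, so no condition was repeated. Nothing in the labels says whether the cells of each line were kept apart before infection. Every p-value below therefore measures the spread between these 6 samples. Depending on the model, that spread can hold differences between the hairpins or unequal responses of the lines, besides any technical part.

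Trophoblast is the outer layer of the embryo that builds the placenta, and amnion is the membrane that encloses the embryo. GATA2, GATA3, TFAP2A and TFAP2C are switched on together when human stem cells turn toward trophoblast, and GATA3, TFAP2A and HAND1 also mark amnion, which arises in a similar response to BMP signals. KLF5 and TBX3 act both in stem cells and in trophoblast, EPAS1 encodes the oxygen-regulated factor HIF-2 alpha that works in placenta, and ferroportin, the product of SLC40A1, moves iron out of cells toward the fetal circulation. In this bulk RNA, fewer cells of a type and less RNA per cell cannot be told apart.

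The libraries held between 2668179 and 4271741 reads in genes, so 1 read was worth 0.224 to 0.408 CPM, read counts scaled to 1000000 by an effective library size. DDX18 had 60.4 and 39.3 CPM in HES2 with shDDX18#3 and shDDX18#1, against 161 CPM in HES2 shLuc, and 47.3 and 19.2 CPM in H9 with shDDX18#3 and shDDX18#1, against 153 CPM in H9 shLuc. The targeted transcript was thus lower in all 4 knockdown libraries (log2 fold change -2.0, adjusted p = 0.0109 by limma). Markers of pluripotent cells were detected in all 6 libraries, and 10 of 13 fell with knockdown and 0 rose. Of 16 fibroblast and feeder markers 9 rose and 0 fell. Their sum was 0.469% and 0.558% of reads in HES2 with shDDX18#3 and shDDX18#1, against 0.0979% in HES2 shLuc. In H9 it was higher in every group, at 1.48% and 3.70% with shDDX18#3 and shDDX18#1, against 0.328% with shLuc, and the fibroblast genes DCN and FAP were at 0 reads in the HES2 shDDX18#3 and shLuc libraries. Of 12 endoderm markers 9 rose and 0 fell, and their sum was 0.0670% and 0.129% in HES2 knockdown libraries, against 0.0178% in HES2 shLuc, and 0.0457% and 0.0887% in H9 knockdown libraries, against 0.0209% in H9 shLuc. Of 12 mesoderm markers with values 3 rose and 3 fell, and of 10 neural crest markers with values 5 rose and 1 fell. Of 10 listed surface ectoderm markers 5 had values, of which 3 rose and 0 fell, and TP63, KRT5, KRT14, KRT15 and DSG3 had none. Of 12 listed endothelial and blood markers 7 had values, of which 3 rose and 0 fell, and PECAM1, GFI1B, SPI1, PTPRC and HBZ had none. Of 15 listed trophoblast markers 8 had values, of which 2 rose and 0 fell. The 2 were GATA2 and GATA3, themselves among the genes described here. The summed trophoblast markers, which include these and TFAP2A and TFAP2C, were 0.0179% to 0.0233% of reads in knockdown libraries. In shLuc libraries they were 0.0118% and 0.0151%, and SDC1, which was not called, gave 95.9 of 113 CPM of that sum in HES2 shLuc. Of 9 listed amnion markers 6 had values, of which 2 rose, GATA3 and IGFBP5, and 0 fell. The summed amnion markers, with GATA3, TFAP2A and HAND1 among them, were 0.0289% to 0.113% of reads in knockdown libraries. In shLuc libraries they were 0.00447% and 0.0107%, and IGFBP5 gave 1180 of the 1232 CPM of the highest sum, H9 shDDX18#1. What part these shifts had in the results below was not tested.

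**Figure D1:**
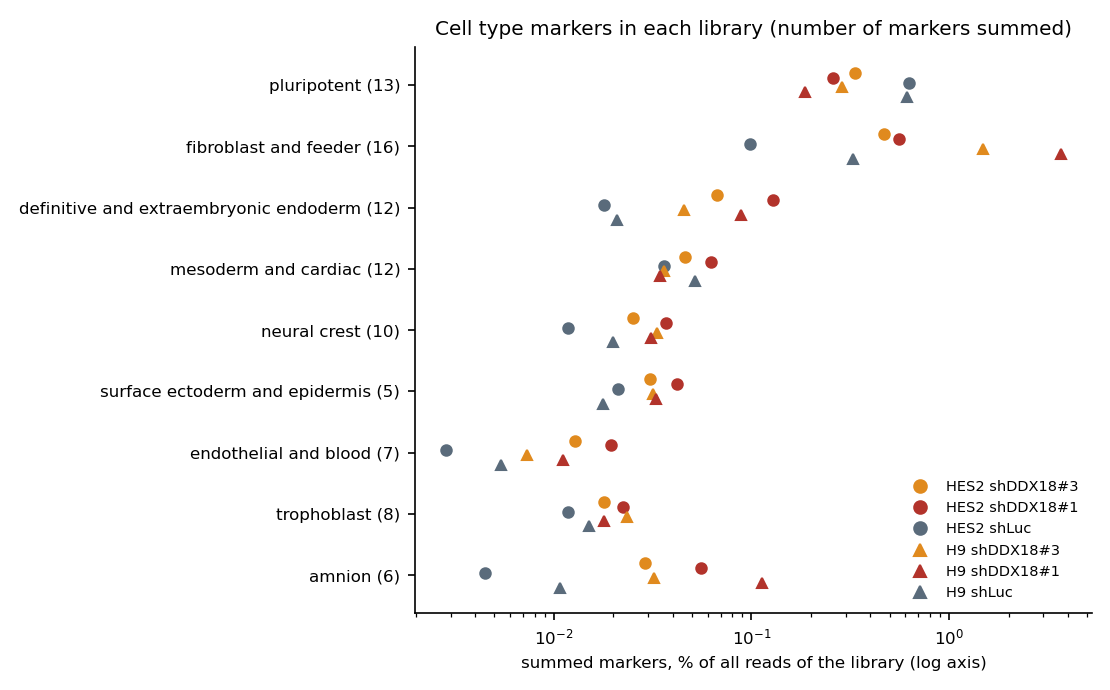
Summed markers of 9 cell types as a share of all reads of each library (log axis), with the number of markers summed in brackets; circles are HES2, triangles are H9, and colours mark the hairpin. Pluripotent markers make up 0.187% to 0.334% of reads in the 4 knockdown libraries and 0.610% to 0.626% in the 2 shLuc libraries, and the fibroblast and feeder sum peaks at 3.70% in H9 shDDX18#1.

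With DDX18 knockdown 6 of the 9 genes rose and 0 fell: GATA3, EPAS1, SLC40A1, TBX3, KLF5 and GATA2. Their log2 fold changes, on the scale of log2(CPM + 1), ran between 1.52 and 3.19. TFAP2A, TFAP2C and HAND1 were not called, with log2 fold changes of 0.79, 0.17 and 0.99. Of all genes tested, 9.6% were called higher and 6.26% lower at an adjusted p under 0.05, and the median log2 fold change was 1.68 over the 9 genes and -0.02 over all genes. In 6 of the 9 every knockdown value lay above both shLuc values, a pattern that 19.8% of all genes showed. When either shLuc library was left out, fewer genes were called, both among the 9 and over all genes. With cell line as a block, the fit without HES2 shLuc takes the knockdown change from H9 alone. The fit without H9 shLuc takes it from HES2 alone. These changes were 2.45 and 3.94 for GATA3, and 1.86 and 1.51 for KLF5.

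**Figure D2:**
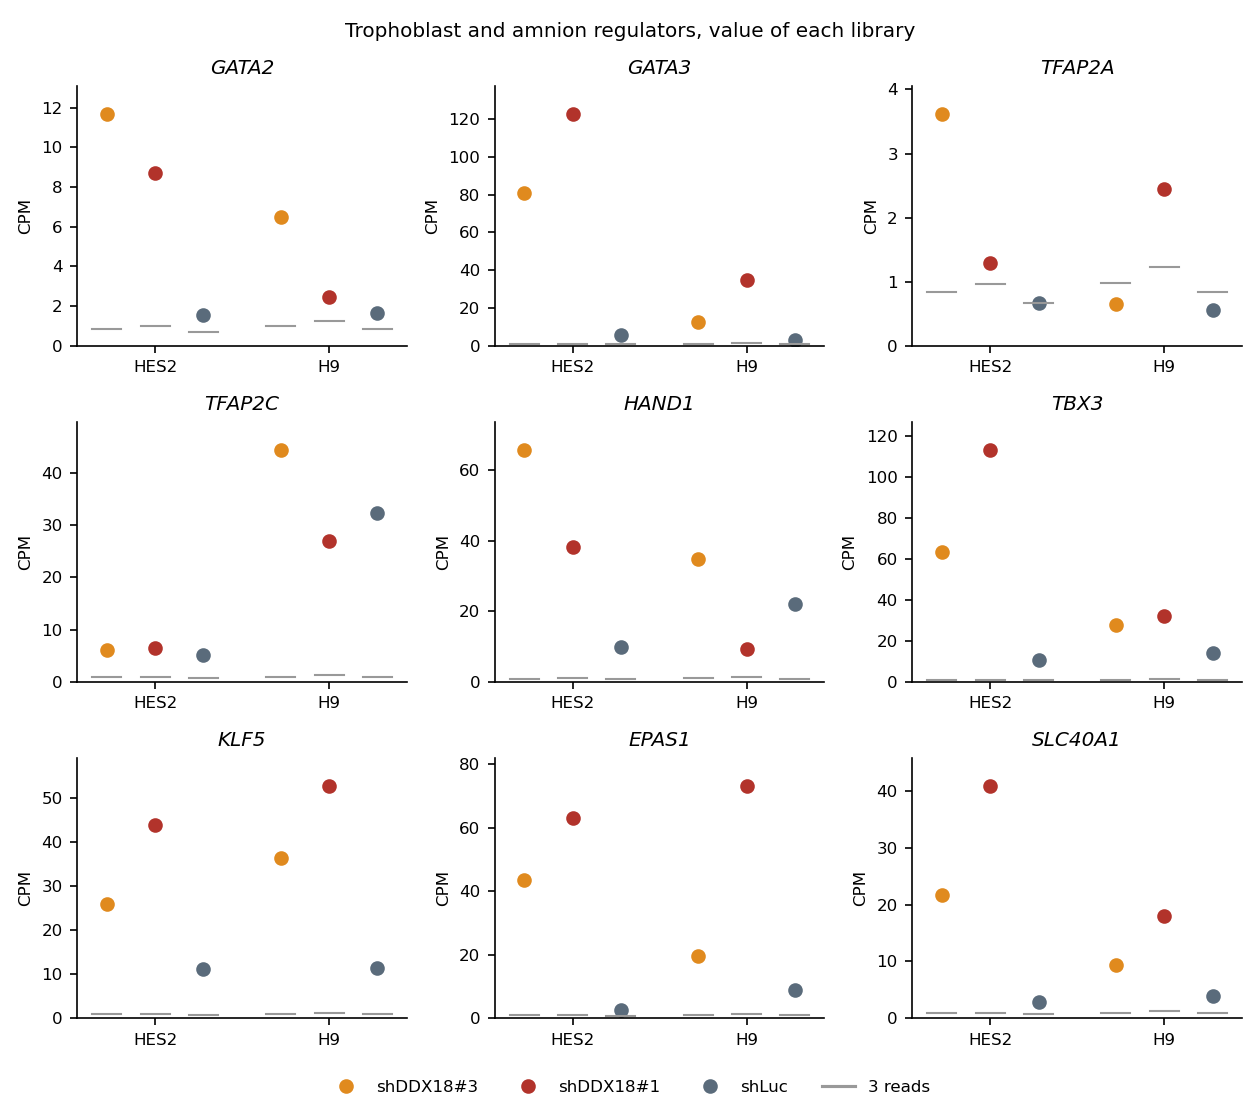
Value of each of the 9 genes in each library, in CPM on linear axes that start at 0 and differ between panels; orange is shDDX18#3, red shDDX18#1 and grey shLuc, and the short grey lines mark the value of 3 reads. The shLuc points lie below all knockdown points for GATA2, GATA3, TBX3, KLF5, EPAS1 and SLC40A1, and among or close to them for TFAP2A, TFAP2C and HAND1.

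GATA3, a zinc finger factor that promotes trophoblast fate, had the largest fitted change of the 9. It had 81.0 and 123 CPM in HES2 with shDDX18#3 and shDDX18#1, against 5.59 CPM in HES2 shLuc, and 12.6 and 34.7 CPM in H9 with shDDX18#3 and shDDX18#1, against 3.05 CPM in H9 shLuc. All 4 knockdown libraries were above both shLuc libraries, and the HES2 pair was highest. GATA3 averaged 62.8 ± 49.2 CPM in knockdown libraries and 4.32 ± 1.80 CPM in shLuc libraries (SD, n = 4 and 2 libraries). Its log2 fold change was 3.19 with a standard error (SE) of 0.45 (adjusted p = 0.0055, limma). It missed the threshold without HES2 shLuc (2.45, adjusted p = 0.0914) and without cell line as a block (adjusted p = 0.0502).

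GATA2, a related factor of trophoblast progenitors and of blood, was measured with 6 to 42 reads a library. It had 11.7 and 8.69 CPM in HES2 with shDDX18#3 and shDDX18#1, against 1.56 CPM in HES2 shLuc, and 6.48 and 2.45 CPM in H9 with shDDX18#3 and shDDX18#1, against 1.66 CPM in H9 shLuc. The groups did not overlap, but H9 shDDX18#1 lay close to shLuc: it held 6 reads, against 6 in H9 shLuc, a ratio of 1.48 with a 95% counting interval of 0.394 to 5.52. The interval of the HES2 shDDX18#3 ratio of 7.47 ran between 3.33 and 19.7. These intervals cover counting error and nothing else. GATA2 rose with a log2 fold change of 1.52 (SE 0.43, adjusted p = 0.0474, limma), and it lost this call in 9 of 16 alternative analyses, with adjusted p between 0.0132 and 0.371.

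GATA3 lies at chr10:8045378-8075203 on the plus strand and GATA2 at chr3:128479427-128493185 on the minus strand of GRCh38. GATA3-AS1, a non-coding RNA read from the opposite strand, starts 157 bases before a RefSeq start of GATA3, and the promoter window of that start holds both starts. It is shown with the GATA2 window because both genes rose. Capitals mark GCCNNNGGC, the letters bound by AP-2 factors such as TFAP2A and TFAP2C, here and in the other windows, which come from RefSeq on GRCh38.p14 and run 5′ to 3′ on the strand of the gene.
GATA3 (chr10:8053391-8053690, plus strand): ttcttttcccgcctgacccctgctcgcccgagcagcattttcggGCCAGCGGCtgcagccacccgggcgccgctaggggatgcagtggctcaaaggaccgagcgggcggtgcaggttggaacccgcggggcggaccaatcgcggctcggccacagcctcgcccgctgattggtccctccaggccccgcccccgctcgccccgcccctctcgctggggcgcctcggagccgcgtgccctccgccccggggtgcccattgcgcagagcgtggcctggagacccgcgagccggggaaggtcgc
GATA2 (chr3:128488481-128488780, minus strand): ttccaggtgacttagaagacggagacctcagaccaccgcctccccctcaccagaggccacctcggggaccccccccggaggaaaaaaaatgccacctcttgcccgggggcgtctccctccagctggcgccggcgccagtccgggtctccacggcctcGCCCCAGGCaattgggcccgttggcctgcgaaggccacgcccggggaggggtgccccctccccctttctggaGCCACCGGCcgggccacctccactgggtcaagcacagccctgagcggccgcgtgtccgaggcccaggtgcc

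GATA3-AS1 had 2.51 and 3.86 CPM in HES2 with shDDX18#3 and shDDX18#1, against 0 reads in HES2 shLuc, and 0.973 and 0.408 CPM in H9 with shDDX18#3 and shDDX18#1, against 0.277 CPM in H9 shLuc. Set against the value of 3 reads in the HES2 shLuc library, it was 3.74-fold higher with shDDX18#3 and 5.76-fold higher with shDDX18#1. Those ratios leave out counting error. The counting intervals of the HES2 ratios to shLuc, at 0 reads, began at 2.46 with shDDX18#3 and 4.00 with shDDX18#1, without an upper limit. The H9 libraries held 3, 1 and 1 reads, at or under the floor of 3 reads. GATA3-AS1 was not called (log2 fold change 1.22, adjusted p = 0.099, limma), and the library kit keeps no strand, so reads where it overlaps GATA3 cannot be told apart from GATA3 reads. GATA2-AS1, TFAP2A-AS1 and TFAP2A-AS2, which overlap GATA2 and TFAP2A in the annotation, had no values among the deposited genes and could not be analysed.

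The AP-2 factors were not called. TFAP2A, needed in trophoblast, amnion, surface ectoderm and neural crest, was near the limit of detection: it had 3.62 and 1.29 CPM in HES2 with shDDX18#3 and shDDX18#1, against 0.671 CPM in HES2 shLuc, and 0.648 and 2.45 CPM in H9 with shDDX18#3 and shDDX18#1, against 0.554 CPM in H9 shLuc. Those values rest on 13, 4 and 3 reads in HES2 and on 2, 6 and 2 reads in H9. The groups overlapped, since H9 shDDX18#3 lay below HES2 shLuc. The largest ratio, 5.40 in HES2 shDDX18#3, had a counting interval of 1.48 to 29.5, and TFAP2A was not called (0.79, SE 0.44, adjusted p = 0.249, limma).

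TFAP2C, which acts in trophoblast, germ cells and naive stem cells, split by line instead of by hairpin. It had 6.13 and 6.44 CPM in HES2 with shDDX18#3 and shDDX18#1, against 5.14 CPM in HES2 shLuc. In H9 it had 44.4 and 27 CPM with shDDX18#3 and shDDX18#1, against 32.4 CPM with shLuc. Every H9 library was above every HES2 library, and the knockdown values of H9 lay on both sides of its shLuc value. The log2 fold change with knockdown was 0.17 (SE 0.26, adjusted p = 0.683, limma). TFAP2A lies at chr6:10393186-10419659 and TFAP2C at chr20:56629302-56639283 of GRCh38.

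HAND1, a basic helix-loop-helix factor of trophoblast giant cells in the mouse, of amnion and of the heart, gave values that overlapped between the groups. It had 65.7 and 38.3 CPM in HES2 with shDDX18#3 and shDDX18#1, against 9.84 CPM in HES2 shLuc, and 34.7 and 9.39 CPM in H9 with shDDX18#3 and shDDX18#1, against 22.1 CPM in H9 shLuc. In HES2 both knockdown libraries were above shLuc, by ratios of 6.68 (counting interval 4.83 to 9.44) and 3.89 (2.73 to 5.63). In H9 the ratio was 1.57 with shDDX18#3 (1.16 to 2.12) and 0.424 with shDDX18#1 (0.254 to 0.681), so that the library H9 shDDX18#1 was the lowest of all 6. HAND1 was not called (0.99, SE 0.63, adjusted p = 0.306, limma). It was called without H9 shDDX18#1, at 1.55 (adjusted p = 0.0342), and its sign turned without HES2 shLuc, at -0.27 (adjusted p = 0.851). H9 shDDX18#1 was also the library with the fewest reads (2668179) and the least DDX18 (19.2 CPM). It had the lowest pluripotent sum (0.187%) and the largest fibroblast and feeder sum (3.70%) as well. What part any of these had in its HAND1 value was not tested.

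TBX3, a T-box factor of trophectoderm, limb and the naive pluripotent state of the mouse, rose. It had 63.5 and 113 CPM in HES2 with shDDX18#3 and shDDX18#1, against 10.7 CPM in HES2 shLuc, and 27.9 and 31.9 CPM in H9 with shDDX18#3 and shDDX18#1, against 14.1 CPM in H9 shLuc. The groups did not overlap, and the values of HES2 knockdown libraries were higher than those of H9. TBX3 averaged 59.0 ± 39.3 CPM in knockdown libraries and 12.4 ± 2.40 CPM in shLuc libraries (SD, n = 4 and 2 libraries), with a log2 fold change of 1.95 (SE 0.40, adjusted p = 0.0189, limma). Without HES2 shLuc that change was 1.03 and was not called. The call was also lost without the intensity trend of the test (adjusted p = 0.0588, limma) and without cell line as a block (0.0604). TBX3 lies at chr12:114670254-114684164 and HAND1 at chr5:154474972-154478264 of GRCh38.

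KLF5, a Krüppel-like factor that acts in trophectoderm and in pluripotent cells, rose. It had 25.9 and 43.8 CPM in HES2 with shDDX18#3 and shDDX18#1, against 11.2 CPM in HES2 shLuc, and 36.3 and 52.7 CPM in H9 with shDDX18#3 and shDDX18#1, against 11.4 CPM in H9 shLuc. The shLuc values were nearly equal, and the groups did not overlap. KLF5 averaged 39.7 ± 11.4 CPM in knockdown libraries and 11.3 ± 0.123 CPM in shLuc libraries (SD, n = 4 and 2 libraries). Its log2 fold change of 1.68 had the smallest error of the 6 called genes (SE 0.27, adjusted p = 0.008, limma). It was not called when either shLuc library was left out, with 1.86 (adjusted p = 0.0785) without HES2 shLuc and 1.51 (adjusted p = 0.101) without H9 shLuc. KLF5 lies at chr13:73054976-73077542 of GRCh38, and the promoter window nearest its principal start held no AP-2 letters.
KLF5 (chr13:73058755-73059054, plus strand): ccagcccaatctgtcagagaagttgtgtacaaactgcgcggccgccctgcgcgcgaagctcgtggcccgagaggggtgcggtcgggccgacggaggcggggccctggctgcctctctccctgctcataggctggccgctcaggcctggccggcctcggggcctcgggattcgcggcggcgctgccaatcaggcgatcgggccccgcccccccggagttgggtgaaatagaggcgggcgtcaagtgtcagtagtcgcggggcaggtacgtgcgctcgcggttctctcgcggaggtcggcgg

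EPAS1, which encodes the oxygen-regulated subunit HIF-2 alpha, had the second largest change. It had 43.4 and 63.1 CPM in HES2 with shDDX18#3 and shDDX18#1, against 2.68 CPM in HES2 shLuc, and 19.5 and 73.1 CPM in H9 with shDDX18#3 and shDDX18#1, against 8.86 CPM in H9 shLuc. The groups did not overlap, and H9 shDDX18#3 was the lowest knockdown library. The ratios to shLuc were 16.2 (counting interval 9.01 to 32.0) and 23.5 (13.2 to 46.3) in HES2, and 2.20 (1.41 to 3.48) and 8.25 (5.64 to 12.4) in H9, for shDDX18#3 and shDDX18#1 in each line. EPAS1 rose with a log2 fold change of 2.92 (SE 0.56, adjusted p = 0.0151, limma), which was 1.98 (adjusted p = 0.169) without HES2 shLuc. The call was also lost without the intensity trend of the test (adjusted p = 0.0504).

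SLC40A1, the ferroportin gene, rose as well. It had 21.7 and 40.9 CPM in HES2 with shDDX18#3 and shDDX18#1, against 2.91 CPM in HES2 shLuc, and 9.40 and 18 CPM in H9 with shDDX18#3 and shDDX18#1, against 3.88 CPM in H9 shLuc. Within each line shDDX18#1 was above shDDX18#3, and both were above shLuc. SLC40A1 averaged 22.5 ± 13.3 CPM in knockdown libraries and 3.39 ± 0.686 CPM in shLuc libraries (SD, n = 4 and 2 libraries), with a log2 fold change of 2.25 (SE 0.43, adjusted p = 0.0151, limma). That change was 1.53 (adjusted p = 0.165) without HES2 shLuc. EPAS1 lies at chr2:46293667-46386703 and SLC40A1 at chr2:189560579-189583758 of GRCh38. Their promoter windows are shown because both genes rose, and 1 of them holds AP-2 letters.
EPAS1 (chr2:46297157-46297456, plus strand): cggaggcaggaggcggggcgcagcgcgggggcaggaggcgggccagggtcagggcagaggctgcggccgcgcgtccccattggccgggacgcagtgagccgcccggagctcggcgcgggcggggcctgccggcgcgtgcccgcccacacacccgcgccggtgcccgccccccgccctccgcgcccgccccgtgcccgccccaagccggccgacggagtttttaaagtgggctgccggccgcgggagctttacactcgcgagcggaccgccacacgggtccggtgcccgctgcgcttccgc
SLC40A1 (chr2:189580737-189581036, minus strand): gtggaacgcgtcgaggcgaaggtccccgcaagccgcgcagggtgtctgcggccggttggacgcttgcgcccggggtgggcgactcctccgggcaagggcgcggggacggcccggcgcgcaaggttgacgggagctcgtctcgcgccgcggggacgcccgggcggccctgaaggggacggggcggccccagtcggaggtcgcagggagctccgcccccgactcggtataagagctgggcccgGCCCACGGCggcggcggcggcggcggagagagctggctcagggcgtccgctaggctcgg

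**Figure D3:**
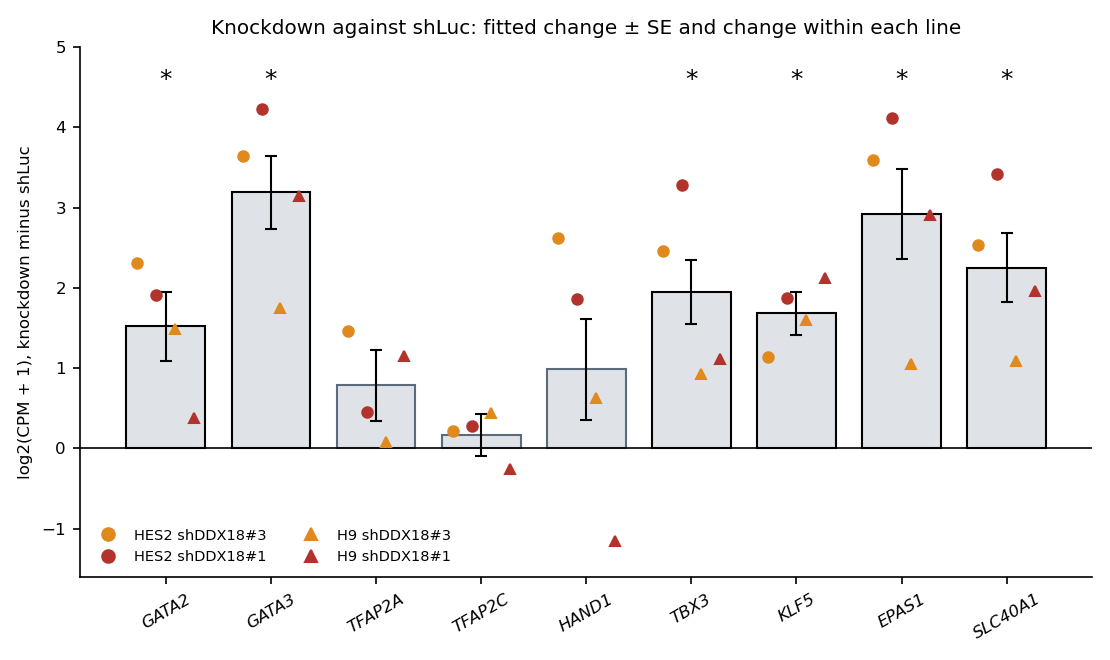
Change of each of the 9 genes with knockdown on the scale of log2(CPM + 1); bars are the limma estimate over all 6 libraries, error bars its SE, circles (HES2) and triangles (H9) the difference of 1 knockdown library from shLuc of the same line, and stars an adjusted p under 0.05. GATA3 has the highest bar at 3.19, and the H9 shDDX18#1 point of HAND1 lies below 0.

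The authors' deposited table, made for knockdown against shLuc with a design not given in the sources used here, also has 6 of the 9 genes higher at a false discovery rate under 0.05, against 13.5% of all its genes. In that table GATA3 has a log2 fold change of 3.66 (false discovery rate 1.28e-12), EPAS1 3.19 and SLC40A1 2.61. In the authors' deposited table HAND1 has 1.05 (0.173), TFAP2A 1.64 (0.129) and TFAP2C 0.20 (0.718). GATA3-AS1 stands there at 3.62 with a false discovery rate of 0.00283, while it was not called by limma here.

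Each hairpin was next set against shLuc alone. The shLuc libraries are shared by these comparisons, so their values stand side by side and are not independent. With shDDX18#3, 6 of the 9 genes were called higher, against 6.96% of all genes, and 0 lower, against 3.69%: GATA3 (2.70, adjusted p = 0.00458), EPAS1 (2.32, 0.0211), GATA2 (1.9, 0.0273), SLC40A1 (1.82, 0.0231), TBX3 (1.70, 0.0393) and KLF5 (1.37, 0.006), by limma. With shDDX18#1, 5 were called higher, against 14.4% of all genes, and 0 lower, against 13.4%: GATA3 (3.69, 0.000479), EPAS1 (3.52, 0.0015), SLC40A1 (2.69, 0.00185), TBX3 (2.20, 0.00655) and KLF5 (2.0, 0.000474). The TBX3 call with shDDX18#1 was lost without the trend (adjusted p = 0.0543, limma), without the line as a block (0.0650) and without the HES2 shDDX18#1 library (0.0563). GATA2 missed with shDDX18#1 (1.15, adjusted p = 0.0789, limma), but it was called by edgeR (1.74, adjusted p = 0.0398) and by limma without H9 shLuc (1.74, 0.0153). HAND1 was called with neither hairpin, at 0.35 with shDDX18#1 (adjusted p = 0.679, limma) and 1.62 with shDDX18#3 (0.107). Over 16 alternative analyses its change ran between -0.90 and 1.60 with shDDX18#1 and between 0.37 and 2.88 with shDDX18#3. The highest value of each came without H9 shLuc. The count for shDDX18#3 was 0 without the intensity trend of the test, 0 without the line as a block, 0 without its HES2 library and 2 without its H9 library.

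The hairpins themselves were compared as shDDX18#3 against shDDX18#1. For 0 of the 9 genes and 0 of all genes was the difference called by limma, with 3 of the 9 and 2536 of all genes at an unadjusted p under 0.05. By edgeR 31 genes were called and by DESeq2 110, none of them among the 9. The differences were negative for GATA3 (-0.99, SE 0.39, adjusted p = 0.298), EPAS1 (-1.19, SE 0.48, 0.316), SLC40A1 (-0.87, SE 0.39, 0.36), KLF5 (-0.63, SE 0.21, 0.235) and TBX3 (-0.50, SE 0.42, 0.64). They were positive for HAND1 (1.27, SE 0.56, adjusted p = 0.359, limma) and GATA2 (0.75, SE 0.43, 0.472). DDX18 itself stood 0.93 higher with shDDX18#3 (SE 0.22, adjusted p = 0.145, limma). Leaving out either shLuc library did not change these differences, because shLuc values do not enter them. Only the estimate of spread changed, and many genes over the whole set were then called, GATA3, EPAS1 and HAND1 among them.

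Between the lines, with the hairpin as a block, 2 of the 9 genes differed. TFAP2C averaged 5.90 ± 0.676 CPM in HES2 and 34.6 ± 8.93 CPM in H9 (SD, n = 3 libraries each), a log2 difference of -2.34 (SE 0.22, adjusted p = 0.00104, limma), where 3.98% of all genes were higher in H9. GATA3 averaged 69.8 ± 59.5 CPM in HES2 and 16.8 ± 16.2 CPM in H9 (SD, n = 3 libraries each), a log2 difference of 1.70 (SE 0.31, adjusted p = 0.0197, limma), where 1.44% of all genes were higher in HES2. The GATA3 averages span all hairpins, and its difference between the shLuc libraries was small beside that between the knockdown libraries. Its call was lost when any 1 knockdown library was left out, with adjusted p between 0.0976 and 0.261. It was also lost without the trend (adjusted p = 0.119, limma) and without the hairpin as a block (0.815). The TFAP2C difference ranged between -2.56 and -1.94 over 16 alternatives and missed the threshold in 1, without H9 shDDX18#3 (-2.18, adjusted p = 0.0561).

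The knockdown effect was then tested for a difference between the lines, as HES2 minus H9. By limma 0 of the 9 genes and 0 of all genes passed, with 788 genes at an unadjusted p under 0.05. By edgeR 0 genes passed and by DESeq2 15, none of the 9. The difference of effects was 2.51 for HAND1 (unadjusted p = 0.0371), 1.88 for EPAS1 (0.0962), 1.84 for TBX3 (0.00966), 1.49 for GATA3 (0.106), 1.45 for SLC40A1 (0.0928) and 1.18 for GATA2 (0.187), all with a limma adjusted p of 0.9998. For KLF5 it was -0.35 with an SE of 0.56, and for TFAP2C 0.15 with an SE of 0.55.

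**Figure D4:**
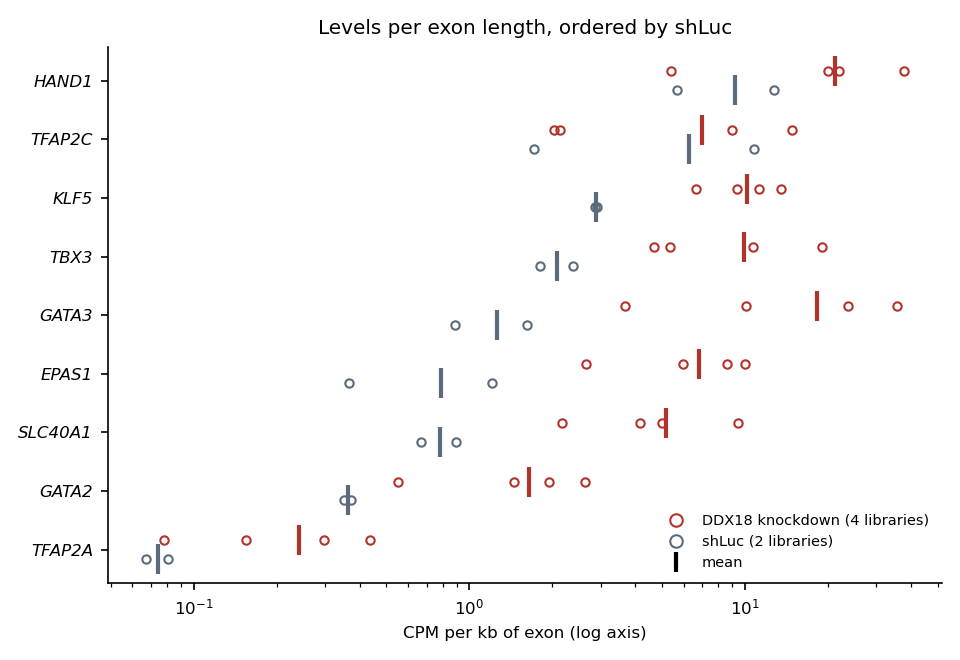
Level of each of the 9 genes in CPM per kb of exon (log axis), ordered by the shLuc mean; open circles are libraries, vertical bars are means, red is DDX18 knockdown (4 libraries) and grey is shLuc (2 libraries). In shLuc the means run between 0.0740 for TFAP2A and 9.20 for HAND1, and GATA3 has a knockdown mean of 18.3.

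Levels of different genes were compared per kb of annotated exon (GENCODE on GRCh38). With knockdown the order of mean levels was HAND1 (21.3 ± 13.3 CPM per kb), GATA3 (18.3 ± 14.3), KLF5 (10.2 ± 2.92), TBX3 (9.92 ± 6.61), TFAP2C (6.98 ± 6.13), EPAS1 (6.82 ± 3.24), SLC40A1 (5.19 ± 3.07), GATA2 (1.64 ± 0.873) and TFAP2A (0.242 ± 0.159), as mean ± SD over 4 libraries. Neighbours in this order down to SLC40A1 differed by less than the larger SD of the pair, and the steps to GATA2 and to TFAP2A by more. In shLuc the order was HAND1 (9.20 ± 5.01 CPM per kb), TFAP2C (6.25 ± 6.41), KLF5 (2.89 ± 0.0315), TBX3 (2.09 ± 0.403), GATA3 (1.26 ± 0.523), EPAS1 (0.790 ± 0.598), SLC40A1 (0.783 ± 0.158), GATA2 (0.362 ± 0.0153) and TFAP2A (0.0740 ± 0.0100), over 2 libraries. Here the steps between KLF5, TBX3 and GATA3 and those to GATA2 and TFAP2A exceeded the SDs, and the others did not. The GATA3 mean was above those of KLF5 and TBX3 with knockdown and below them in shLuc, but the lines differed. In HES2 GATA3 stood at 23.6 and 35.8 CPM per kb with shDDX18#3 and shDDX18#1, above KLF5 at 6.65 and 11.2 in the same libraries. In H9 it stood at 3.68 and 10.1 CPM per kb, below KLF5 at 9.33 and 13.5, and with shDDX18#3 also below TBX3 at 4.69.

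Other genes of the same lineages were read from lists chosen with earlier results of these data known. Of 35 further trophoblast genes 21 were tested, of which 7 rose and 0 fell, with a median log2 fold change of 0.45. Those that rose included ITGA2 (1.88), an integrin, LRP2 (2.63), the endocytic receptor megalin, NR2F2 (3.23), a nuclear receptor of many mesenchymal tissues, and TEAD1 (0.86), a partner of YAP. CDX2, a trophectoderm factor that also marks hindgut and mesoderm, had 6.96 and 18.7 CPM in HES2 with shDDX18#3 and shDDX18#1, against 0.447 CPM in HES2 shLuc, and 2.27 and 1.23 CPM in H9 with shDDX18#3 and shDDX18#1, against 2.21 CPM in H9 shLuc. It was high in the HES2 knockdown libraries and was not called (1.43). TEAD4 (-0.38) and ERVW-1, the syncytin gene (1.00), were not called either. The factors ELF5, TP63 and GCM1, the hormone genes CGA, CGB3, CGB5 and CGB8, and HLA-G and VGLL1 were on the list. They had no values among the deposited genes and could not be analysed.

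Of 25 further genes of amnion and of stem cells treated with BMP4, 21 were tested, of which 9 rose and 0 fell, with a median of 0.95. They included TNC (1.78), a matrix protein, the epithelial keratins KRT19 (1.65) and KRT18 (1.38), CDH10 (2.28), a cadherin, and BMP4 itself (1.97). Of the BMP targets on the list BAMBI (1.11) and MSX1 (1.79) rose, and ID1 (-0.07), ID2 (0.95) and ID3 (-0.25) were not called. ID1 had 128 and 193 CPM in HES2 with shDDX18#3 and shDDX18#1, against 72.0 CPM in HES2 shLuc, and 37.0 and 35.9 CPM in H9 with shDDX18#3 and shDDX18#1, against 88.0 CPM in H9 shLuc. Its knockdown values lay above shLuc in HES2 and below it in H9. The amnion marker GABRP had 3.06 and 0.965 CPM in HES2 with shDDX18#3 and shDDX18#1, against 10.7 CPM in HES2 shLuc, and 8.43 and 4.90 CPM in H9 with shDDX18#3 and shDDX18#1, against 2.21 CPM in H9 shLuc. It was below shLuc in HES2 and above it in H9, and was not called. The amnion genes VTCN1, WNT6 and MUC16, also listed, had no values among the deposited genes and could not be analysed.

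**Figure D5:**
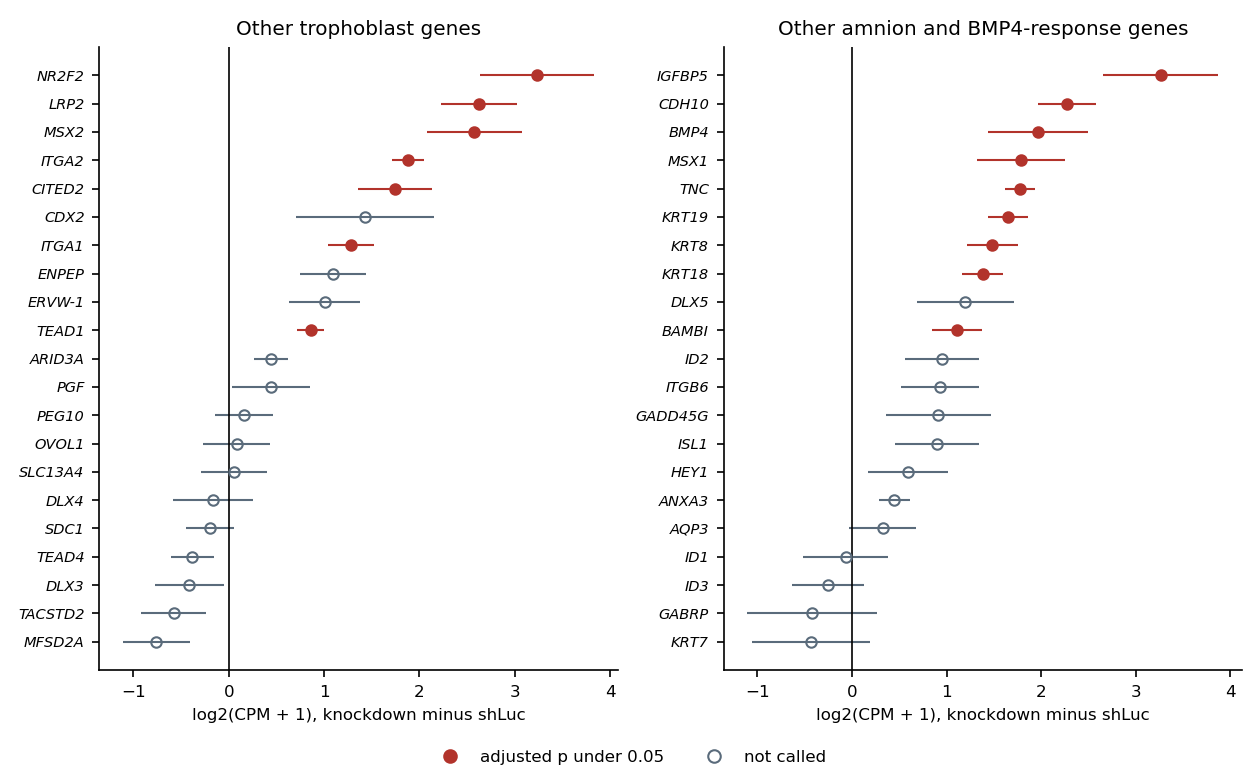
Log2 fold change with knockdown for the further trophoblast genes (left) and the further amnion and BMP4-response genes (right), as limma estimates on log2(CPM + 1) with SE; filled red points have an adjusted p under 0.05. On the left 7 of 21 genes are called and on the right 9 of 21, all of them to the right of 0.

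Relatives of the 9 genes moved in both directions. Of 21 tested genes on the list of paralogs 11 rose and 3 fell, with a median of 0.95. Those that rose included the endoderm and heart factors GATA6 (1.99) and GATA4 (2.11), KLF6 (2.0) and TWIST1 (2.61), a mesenchymal relative of HAND1. Those that fell were TFAP4 (-1.26), TBX6 (-1.76) and TBXT (-1.74), of which TBX6 and TBXT mark primitive streak and mesoderm. TFAP4 encodes a basic helix-loop-helix factor that is no AP-2 paralog, and without it 11 of 20 rose and 2 fell, with a median of 1.02. Of 12 tested cofactors of GATA factors and AP-2 factors, ZFPM1 (1.17) and KCTD1 (1.47) rose, KCTD15 (-0.59) fell, and the median was 0.05. ZFPM1 is the GATA partner FOG1, and KCTD1 and KCTD15 inhibit AP-2 factors.

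Around EPAS1, 7 of 18 tested genes of the hypoxia response rose and 2 fell, with a median of 0.67. NDRG1 (2.66), a stress-response gene, and LOX (2.97), also a matrix gene of fibroblasts, were among those that rose. The glycolytic targets PDK1 (-1.65) and PGK1 (-0.89) fell. HIF1A, the paralog with the same partner, had a log2 fold change of 0.42. Around SLC40A1, 4 of 17 tested genes of iron handling rose and 1 fell, with a median of 0.36: BMP6 (2.59), which signals iron status to the liver, NCOA4 (1.00), a receptor for ferritin breakdown, FTL (1.14), a ferritin chain, and TFRC (0.57), the transferrin receptor, rose, and PCBP1 (-0.47), an iron chaperone, fell. Of 9 tested genes on the list for naive pluripotency, in which TBX3 and TFAP2C act, 1 rose (KLF2, 2.19) and 4 fell: PRDM14 (-2.13), TBXT (-1.74), ZFP42 (-1.47) and NANOG (-1.38), with a median of -0.74. TBXT marks primitive streak, and without it 1 of 8 rose and 3 fell, with a median of -0.61. Those 3, PRDM14, ZFP42 and NANOG, are also among the pluripotent markers counted above, and the other 4 were not called.

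Genes whose values followed each of the 9 most closely over the 6 libraries were taken by Pearson's r on log2(CPM + 1), among 10485 genes with a mean of at least 10 CPM. This is a description over n = 6 libraries that share hairpins and lines, with no test. For GATA3 they were STK40 and TNFRSF19 (r = 0.99 for both), and TNFRSF19 had 69.1 and 79.5 CPM in HES2 with shDDX18#3 and shDDX18#1, against 6.71 CPM in HES2 shLuc, and 12.3 and 27 CPM in H9 with shDDX18#3 and shDDX18#1, against 5.26 CPM in H9 shLuc. For SLC40A1 they were LHX1 and FOXI2 (1.00 for both), for TBX3 BMPER and DENND2C (1.00 for both), for EPAS1 SLC38A7 and FAM126B (1.00 for both), and for KLF5 LTBP1 and MIB2 (1.00 for both). For TFAP2C they were TMEM161B and NGFR (0.99 for both), and NGFR had 5.29, 6.44 and 5.37 CPM in HES2 with shDDX18#3, shDDX18#1 and shLuc, and 133, 44.5 and 50.4 CPM in H9 in the same order of hairpins. For GATA2 they were EAF1 (1.00) and GZF1 (0.99), for HAND1 THOC2 (0.99) and ETFRF1 (0.98), and for TFAP2A TICAM2-AS1 (0.97) and PIAS3 (0.96).

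RefSeq promoter windows, running 250 bases before to 50 after a start, were found for 7 of the 9 genes, 15 windows in all and 6 of them for GATA3. The motifs were searched on both strands. The AP-2 letters GCCNNNGGC were in 7 of the 15 windows and in 23.2% of all 35116 windows, and they belonged to GATA2, GATA3, HAND1 and SLC40A1. Of 9 AP-2 matches 2 overlapped a match of the KLF letters CCNCNCCC, which were in 14 windows and in 56.2% of all windows. The hypoxia core ACGTG was in 2 windows (GATA3 and KLF5) and in 21.4% of all windows. The GATA letters AGATAA and the T-box letters TCACACCT were in 0 of the 15, against 10.3% and 0.98% of all windows. Matches describe letters in these windows and nothing about binding.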

How the data were processed

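Messenger RNA was sequenced in 6 libraries of HES2 and H9 cells. Per the submitters' processing notes, Bowtie2 2.3.4.3, SAMtools 1.9, HTSeq 0.11.2, edgeR 3.26.8 and hg19 were used, and the role of each is not given in the sources used here. For 17929 genes the authors deposited a normalized signal of every library, with log2 fold changes, a p-value, false discovery rates, a mean log2 abundance and a likelihood ratio score. The score and the mean abundance were not used here. Tested on the table, 100% of the deposited signal values were whole reads (tolerance 0.001) once divided by the value of 1 read, so the signal is in CPM, read counts scaled to 1000000 by an effective library size, with a floor of 3 reads between 0.671 and 1.23 CPM.

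Testing on log2(CPM + 1) took the 17768 genes that reached 1 CPM in 2 or more libraries, and left out 161. It used limma 3.58.1 (R 4.3.3) with a trend of the prior variance on intensity and Benjamini-Hochberg adjustment over all genes. The main model set 4 knockdown libraries against 2 of shLuc, and the cell line was its block. The line is named in the labels and pairs the libraries, whose deviations correlated at 0.36 to 0.65 within a line. Further models took the hairpins apart, compared the lines with the hairpin as a block, and tested the interaction. Each arm has 1 library per line, so all libraries share 1 estimate of spread, and where 1 is left out its partner is assumed to vary like the others. Every result was recomputed with a pseudocount of 0.25 or 4, with a filter of 5 CPM or none, under other scalings, without trend or block, and without each library in turn. The recovered reads were also tested with DESeq2 1.42.0 and edgeR 4.0.16. The leave-out fits outside the main comparison were chosen after seeing the data.

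Counting intervals are exact at 95%. The genes, lists and markers were chosen with earlier results of these data known. From each list the text names up to 4 called genes of smallest p, and it adds GATA3-AS1, the genes whose pattern is most like each of the 9, and, chosen after their values were seen, CDX2, TEAD4, ERVW-1, BMP4, ID1, ID3, GABRP, HIF1A, TFAP4, TBX6, IGFBP5, SDC1, BAMBI, MSX1, ID2, PGK1, PCBP1 and KLF2. One gene that this rule takes is not reported here. Of the symbols, 15532 were deposited and 600 were looked up by gene ID. Exon lengths and positions came from GENCODE on GRCh38, not from the build of the files.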

Additional observations from a re-analysis of the deposited data

How the results depend on the processing

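Of the 9 genes, 6 were called higher with knockdown in the main comparison, 3 by limma without the trend, 3 without the replicate block, and 0 to 7 when 1 library was left out. The 0 came without HES2 shLuc. Over all genes 1706 were called higher and 1113 lower, with 886 and 342 without the trend, 790 and 409 without the replicate block, and 185 to 1986 higher and 7 to 1604 lower when 1 library was left out. For shDDX18#3 against shLuc the 6 called genes became 0 without the trend, 0 without the block, and 0 to 7 with 1 library left out. For shDDX18#3 against shDDX18#1 leaving out 1 library gave 0 to 3. For HES2 against H9 the count of 2 became 1 without the trend, 1 without the block for the arm, and 0 to 5 with 1 library left out. For shDDX18#1 against shLuc and for the interaction no count moved by over 1.5 times, and the interaction needs the line as a term, so it has no fit without it. In the main comparison the fit without HES2 shLuc holds the knockdown change of H9 alone, and that without H9 shLuc the change of HES2 alone. The gap between the changes in those fits is the interaction. Other causes were not tested, beyond the fewer libraries of the leave-out fits.

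Signs turned only for genes that were not called in the comparison concerned. With 1 library left out, the log2 fold change of HAND1 ran from -0.27 to 2.24 with knockdown and from -0.90 to 1.60 with shDDX18#1, that of TFAP2C with shDDX18#1 from -0.31 to 0.33, and that of TFAP2A with shDDX18#3 from -0.0892 to 1.64. For shDDX18#3 against shDDX18#1 the ranges were -0.89 to 0.84 for TFAP2A, -0.0040 to 0.64 for TFAP2C and -1.20 to 0.20 for TBX3. For HES2 against H9 they were -0.24 to 0.80 for TFAP2A, -0.82 to 0.45 for EPAS1 and -0.0962 to 1.41 for HAND1, and in the interaction -0.19 to 0.88 for TFAP2A, -0.20 to 0.50 for TFAP2C and -0.71 to 0.0208 for KLF5. TFAP2C with shDDX18#1 also turned at a pseudocount of 4 (-0.0213), scaled to total reads (-0.0419), by edgeR (-0.0588) and by DESeq2 (-0.00991). TFAP2A between the hairpins turned at a pseudocount of 4 (0.0273), scaled to total reads (0.0228) and by edgeR (0.19), and EPAS1 between the lines by edgeR (0.0380). Scaled to total reads, the median log2 difference of all genes between HES2 and H9 was 0.15, against 0.03 with the deposited scaling. Depth limits GATA2, TFAP2A and GATA3-AS1, whose shLuc values rest on 0 to 7 reads. Genes read from the lists are limited too. Among them are CDX2 (0.447 CPM in HES2 shLuc), ERVW-1 (0 CPM in HES2 shLuc) and KLF2 (0.277 CPM in H9 shLuc).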
